A study of Mus musculus with 208 samples.

Results

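The clustered protocadherins are a family of neuronal cell-surface genes that lie together on mouse chromosome 18 in the alpha, beta and gamma clusters. Members were taken from the gene symbols of the 4 count tables by name, as every symbol that starts with Pcdha, Pcdhb or Pcdhg followed by a number, or by the letter a, b or c and a number. The rule used no measured value and found 56 of the 46403 symbols in each table, namely 13 alpha, 22 beta and 21 gamma genes. The 4 C-type genes (Pcdhac1, Pcdhac2, Pcdhgc3 and Pcdhgc5) close the alpha and gamma clusters. Symbols for Pcdha10 and Pcdhgc4 were not among them, so those genes were not analysed here.

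Clustered protocadherins are cadherin-related adhesion proteins that bind copies of themselves on the facing membrane. Each gene has its own promoter and a long variable exon that encodes the extracellular part, and the alpha and gamma variable exons are spliced to constant exons shared by the whole cluster, whereas beta genes are not. A neuron uses a limited, largely random set of alpha, beta and gamma A or B promoters, chosen with the help of CTCF and cohesin, while the C-type genes are used more evenly across cells. The resulting surface code lets the branches of a neuron recognize and avoid each other.

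The data are 208 RNA-seq libraries of nuclei sorted for NeuN, a neuronal nuclear protein, each from 1 mouse and 1 brain region. By their replicate labels they came from 71 mice, most of which gave libraries of several regions. The mice were wild-type C57BL/6NTac adults of both sexes. The first part of the replicate label, with 18 different numbers, is called a litter here, after the sample format in the supplementary tables of the study, although the main text of the study counts more litters. Dams carried osmotic minipumps with morphine (10 mg/kg/day) or saline, pups went to drug-naive surrogates shortly after birth and then received morphine (10 mg/kg) or saline injections up to the second postnatal week, and the adults received LPS (bacterial lipopolysaccharide, an immune stimulus) or saline 2 h before the tissue was taken. The groups, named by the perinatal and then the adult treatment, are SAL-SAL (11 hypothalamic libraries), MOR-SAL (14), SAL-LPS (12) and MOR-LPS (14), and all groups share the pump, the injections and the change of dam. No litter number held both exposures, so litter and perinatal exposure cannot be told apart. The sort keeps neurons of every type in a punch, and fewer cells of a type and less RNA per cell cannot be told apart in such bulk libraries.

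Total counts ran from 7673 to 35077048 per hypothalamic library (median 5543589) and from 227025 to 92945090 in the hippocampus, prefrontal cortex (PFC) and striatum. In the hypothalamus 3 libraries, 2 of SAL-SAL and 1 of SAL-LPS, had less than 0.5 of the table's median depth, and the shallowest, a SAL-LPS library, had no count in any member and stayed in the fits. Y-linked counts went against the labelled sex in 3 hypothalamic, 4 hippocampal and 4 PFC libraries. Marker sums, each the sum over a fixed list of genes of normalized CPM (counts scaled to a common library size), set 9 hypothalamic libraries apart: 4 SAL-SAL and 5 MOR-LPS libraries had thalamus, cortex or hippocampus markers above 3 times the table's median. Those 5 MOR-LPS libraries had cortex markers of 204 to 465 CPM and hypothalamus markers of 0 to 28.6 CPM, against 46.7 to 185 CPM and 2.85 to 263 CPM in the other 9, so their marker levels fit the label hypothalamus poorly. Those 9 are referred to as libraries high in regional markers. Oligodendrocyte markers passed the same threshold in 5 MOR-LPS, 3 SAL-LPS and 2 SAL-SAL libraries, astrocyte markers in 8 MOR-LPS, 1 SAL-LPS and 2 SAL-SAL libraries, and striatum markers in 1 MOR-SAL and 1 SAL-LPS library.

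The first result concerns which members could be counted at all. In the hypothalamus, 55 of 56 members had counts, and all 13 alpha, all 22 beta and 20 of 21 gamma genes were among them. In each of the other 3 tables, 55 of 56 members stood at 0 in every library, and Pcdha1 alone was counted, with 2369 reads in the striatum, 1155 in the hippocampus and 879 in the PFC. A count of 0 over a whole table allows up to 0.00362 CPM in the striatum, 0.00511 CPM in the hippocampus and 0.00604 CPM in the PFC (3 counts over the summed table, counting error only), whereas the hypothalamic median of Pcdhb14 was 28.5 CPM over 51 libraries.

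The 0 values went with the gene models. In the GENCODE M21 annotation of GRCm38, 2 long protein-coding models, Gm37013 (chr18:36969916-37833296, plus strand) and Gm37388 (chr18:36975941-37833296, plus strand), overlap all 56 members and were themselves at 0 in every table. A further such model, Gm42416 (chr18:36952741-37840200, plus strand), was not analysed here. Of the 55 members with 1 gene identifier, 54 had no base of their gene body, introns included, that was free of other genes, and the exception was Pcdha1 (chr18:36930184-37187661, plus strand), with 7823 free bases of 257478. The same pattern held over all genes with a hypothalamic median of at least 5 CPM. Among those without a free gene-body base, 1071 of 1140 (93.9%) were at 0 in all 3 forebrain tables, and among those with free bases, 30 of 10573 (0.284%). When only genes on the same strand counted as overlapping, the shares were 502 of 526 (95.4%) and 599 of 11187 (5.35%). A 0 of these 55 members in the forebrain tables can therefore not be read as absent expression.

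In the hypothalamic table, members without a free gene-body base had counts. The lone hypothalamic 0 was Pcdhga10 (chr18:37746993-37841873, plus strand), the one member whose exons had no base free of other genes when both strands were considered. An antisense transcript, Gm26672 (chr18:37746559-37768242, minus strand), covers its variable exon and drew 1723 hypothalamic reads. With the plus strand alone, Pcdhga10 had 2613 free exon bases. For this reason the hypothalamic table was not set against the others in any test.

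Reads shared between near-identical exons were a smaller limit. Of the 100-base windows along each variable exon, the median share found in another member was 4.39% for alpha, 0.207% for beta and 0% for gamma genes. Pcdhga4 was the highest at 37.4%, so its level is uncertain. Pcdhac2 and Pcdhgc5 had no such window. Pcdha11 has 2 gene identifiers under 1 symbol and is left out of levels per length, and Pcdha4 has just 404 free exon bases, so its level per length is uncertain too.

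In the hypothalamus, members took 0.0725% of all counts, of which gamma genes held 44.6% (99797 reads), beta genes 39.6% (88598) and alpha genes 15.8% (35361). Among the 48 libraries of usual depth, 43 to 55 members were detected, with a median of 54.

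To compare genes, the mean normalized CPM of SAL-SAL libraries was divided by the length of exon free of other genes, and this level per kb is used in the following sentences. The SAL-SAL libraries averaged here include those of low depth and the 4 high in regional markers. Gamma genes had a median of 6.502 CPM per kb (0.923 to 22.1, 20 genes), beta genes 3.44 (0.113 to 9.65, 22 genes) and alpha genes 3.26 (2.05 to 34.4, 12 genes). The 3 highest gamma genes were Pcdhga8 at 22.1 ± 10.1 CPM per kb (SD, n = 11), Pcdhga7 at 11.5 ± 4.74 and Pcdhga5 at 10.6 ± 2.59, all of the A subgroup.

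Among beta genes the highest levels per kb were those of Pcdhb15 (9.65 ± 4.77, n = 11), Pcdhb10 (6.40) and Pcdhb16 (6.19). Among alpha genes they were those of Pcdha4 (34.4 ± 32.4), the C-type Pcdhac2 (9.93 ± 5.26) and Pcdha8 (6.64 ± 3.53). Neighbours in this order were not separable: of all steps between adjacent genes, the gap exceeded the larger SD of the pair 1 time, below Pcdhga8.

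The plot of levels along the chromosome shows a run of low genes. Pcdhb1 to Pcdhb5, at the start of the beta cluster, had 0.113 to 1.60 CPM per kb (median 0.71, 5 genes), against 1.06 to 9.65 (median 3.803, 17 genes) for Pcdhb6 to Pcdhb22. The ranges of these 2 stretches overlapped, and the split was drawn after the values were seen. Pcdhb1 had no count in 29 of 51 libraries.

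**Figure D1:**
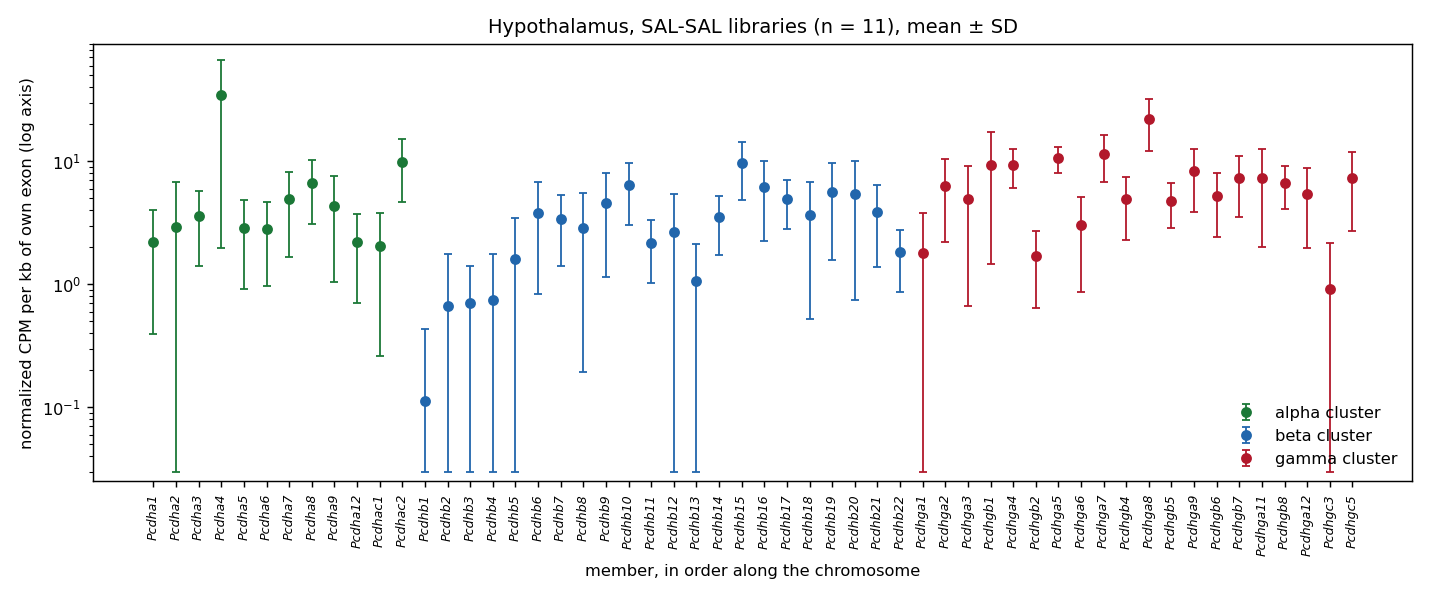
Mean normalized CPM per kb of exon free of other genes (log axis) for each member with a value, in chromosome order, in the 11 SAL-SAL hypothalamic libraries. Points are means and bars are SD, drawn down to the lower edge of the plot where the SD exceeds the mean. Pcdha4 and Pcdhga8 are the highest points and Pcdhb1 the lowest.

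The C-type genes differed widely from each other. Pcdhac2, which serotonergic axons need to space themselves, had 12.2 to 54.0 CPM in SAL-SAL libraries (median 26.0) and took 22.1% ± 8.19 (SD, n = 11) of all alpha counts. Pcdhgc5 had 3.94 to 69.6 CPM (median 34.6), and took 8.96% ± 5.29 of gamma counts. Pcdhac1 (0 to 16.9 CPM, median 4.95) and Pcdhgc3 (0 to 7.86 CPM, median 1.15) were low. Per kb the order was Pcdhac2 (9.93), Pcdhgc5 (7.34), Pcdhac1 (2.05) and Pcdhgc3 (0.923), and Pcdhac2 and Pcdhgc5 lay within 1 SD of each other.

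The 2 beta genes used to mark the family behaved unlike each other. Pcdhb14 (chr18:37447656-37456350, plus strand) was among the steadiest members, with 0 to 55.5 CPM in SAL-SAL (median 28.4), 19.4 to 42.5 in MOR-SAL (33.6), 0 to 65.0 in SAL-LPS (29.2) and 17.3 to 49.5 in MOR-LPS (24.4). Pcdhb2 (chr18:37294812-37297624, plus strand) was near its detection limit, with 0 to 10.2 CPM in SAL-SAL (median 0.45), 1.15 to 11.2 in MOR-SAL (4.12), 0 to 9.90 in SAL-LPS (2.65) and 0 to 7.49 in MOR-LPS (2.26). All 4 groups overlapped for both genes, and Pcdhb2 had no count in 5 of 11 SAL-SAL libraries.

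The coefficient of variation between libraries had its lowest median in the gamma cluster. Over the 48 libraries of usual depth, all conditions together, the coefficient of variation had a median of 43.6% in gamma, 50.6% in beta and 57.2% in alpha genes. Pcdhga5 had the lowest (24.3%, mean 26.8 CPM) and Pcdhb1 the highest (213%, mean 0.47 CPM). These values include counting error, which weighs more in sparsely counted genes. Differences between clusters in level and in steadiness can therefore not be told apart here. Members were weakly alike across libraries. For this, log2(normalized CPM + 0.5) of each gene was taken as the deviation from its mean in the same condition. The median pairwise correlation of these deviations was 0.20 among gamma, 0.15 among alpha and 0.14 among beta genes. Between clusters it was 0.11 for alpha and beta, 0.10 for alpha and gamma and 0.04 for beta and gamma genes. The 48 libraries share depth and tissue makeup as sources of likeness.

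Cluster sums did not separate the groups. The alpha sum had medians of 134 normalized CPM in SAL-SAL, 140 in MOR-SAL, 113 in SAL-LPS and 112 in MOR-LPS libraries. In the same order the beta sum had medians of 275, 306, 272 and 265 CPM, and the gamma sum 363, 355, 307 and 352 CPM. In each cluster the ranges of all 4 groups overlapped. The beta sum of SAL-SAL was stretched by both libraries of litter 10, at 530 and 594 CPM against 229 to 335 CPM in the other 7 SAL-SAL libraries of usual depth.

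**Figure D2:**
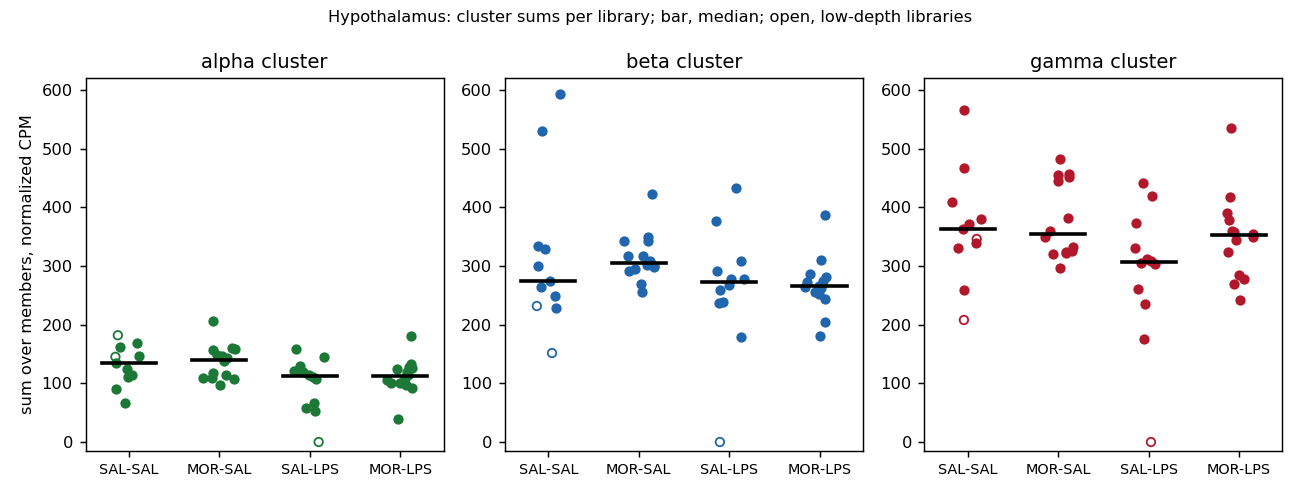
Sum of normalized CPM over the alpha, beta and gamma members in each hypothalamic library, by group. Filled points are libraries of usual depth, open points low-depth libraries and bars group medians, and the 2 highest beta sums are the SAL-SAL libraries of litter 10.

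Those 2 libraries also had the highest thalamus marker sums, 4461 and 6252 CPM against 325 to 2668 CPM in the other 7. Of the members, 7 of 22 beta, 1 of 13 alpha and 1 of 20 gamma genes were higher in both than in each of those 7, as were 2107 of all 28859 genes tested (7.30%). Pcdhb20 had 47.4 and 52.3 CPM against 4.50 to 19.8 CPM, and Pcdhb18 had 33.7 and 59.7 CPM against 6.70 to 20.9 CPM. The part of the thalamus markers in these levels was not tested.

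The question of the MOR-SAL against SAL-SAL comparison was whether perinatal morphine left a lasting mark at rest. Each group serves in 2 of the 4 pairwise comparisons, so those with a group in common share its libraries. At rest no member passed the test: edgeR's quasi-likelihood test with Benjamini-Hochberg adjustment called 0 of 55 members, where 1.44% of the 28859 genes tested were called. That background of 416 genes was 85 (without litter 10) to 774 (without litter 1) over the litters left out in turn, and it fell to 24 without the libraries high in regional markers and to 11 by limma-voom with a correlation within litters. An unadjusted p under 0.05 was found for 2 members, both beta, and DESeq2 and limma-voom called none either. Log2 fold changes lay below 0 for 28 of 55 members (median -0.00, all genes 0.07), and by cluster the medians were -0.00 for alpha, -0.01 for beta and -0.01 for gamma.

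Markers of other tissue and cell types moved in this comparison. Of 8 thalamus markers Ntng1, Plekhg1, Prkcd and Rora were called lower (list median -1.57), with sums of 325 to 6252 CPM in SAL-SAL and 301 to 1665 CPM in MOR-SAL. The choroid plexus markers Folr1 and Ttr (list median -1.89), the oligodendrocyte marker Mobp (list median -1.64) and the astrocyte marker Slc1a2 (list median -1.14) were called lower as well. Their part in the estimates of the members was not tested.

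The smallest p belonged to Pcdhb11, with 0 to 18.7 CPM in SAL-SAL (median 9.39) and 12.2 to 22.7 CPM in MOR-SAL (median 17.0). The groups overlapped, and the log2 fold change was 0.75 (SE 0.27, edgeR adjusted p = 0.112). The largest estimate was that of the sparsely counted Pcdhb2, 1.29 (SE 0.66, adjusted p = 0.304). It was 0.89 without litter 5, 1.92 without litter 4, and 0.84 to 2.38 (adjusted p of 0.0629 to 0.761) over 30 alternatives. For Pcdhac2 the 95% interval ran from -0.51 to 0.50, and for Pcdhb14 from -0.35 to 0.51, so changes of either sign within those bounds could not be seen with these libraries. The estimate of Pcdhgc5, -0.23, turned to 0.08 without litter 10 and to 0.13 without the 9 libraries high in regional markers.

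Under LPS, MOR-LPS was set against SAL-LPS to ask whether the exposure altered the challenged state. Again 0 of 55 members were called, against 1.03% of all genes. That background of 298 genes fell to 3 where low-count genes were removed by filterByExpr (an edgeR function), to 2 without the libraries in conflict with their sex label, to 4 with counts summed by litter and to 0 without litter 14. Estimates were above 0 for 34 of 55 members (median 0.07, all genes 0.01), and all 4 C-type genes were on that side. Without the libraries high in regional markers the majority lay on the other side, with 31 of 55 below 0, and without those high in astrocyte markers 30 were below 0. Pcdhgc5 had the one unadjusted p under 0.05, with 0 to 66.2 CPM in SAL-LPS (median 30.6) and 13.2 to 122 CPM in MOR-LPS (median 40.3), a log2 fold change of 0.76 (SE 0.31, edgeR adjusted p = 0.206). Without the libraries high in regional markers the estimate fell to 0.05 (adjusted p = 1). DESeq2 and limma-voom called no member. Of 6 astrocyte markers Slc1a2 was called higher in this comparison (list median 1.36), though with filterByExpr its edgeR adjusted p was 0.0865. Cortex markers had a list median of 1.94 with none called, and no other cell type or region marker was called. The part of these markers in the estimates of the members was not tested.

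Against saline, LPS groups of either exposure had estimates that leaned below 0, with no member called lower. In SAL-LPS against SAL-SAL, 0 of 55 members were called (0.246% of all genes), and 42 of 55 (76.4%) had a log2 fold change below 0, against 44.6% of all genes tested. The median was -0.26, against 0.07 over all genes. The background of 71 genes was 0 (without litter 3) to 73 (without litter 18) over the litters left out, with 1 gene without litter 10, and it fell to 2 without the libraries high in regional markers and to 0 by limma-voom with a correlation within litters. By cluster, 19 of 20 gamma, 11 of 13 alpha and 12 of 22 beta members lay below 0. An unadjusted p under 0.05 was found for 2 members, and DESeq2 and limma-voom called none.

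Markers of neighbouring tissue moved in this comparison too. Of 8 thalamus markers Ntng1, Plekhg1 and Rora were called lower (list median -1.52), with sums of 325 to 6252 CPM in SAL-SAL and 53.9 to 1075 CPM in SAL-LPS. Of 6 choroid plexus markers Ttr was called lower (list median -2.15), with sums of 0.383 to 294 and 0.613 to 53.9 CPM. No neuron, glia, endothelium, hypothalamus, cortex, hippocampus or striatum marker was called. The part of these markers in the lean of the members was not tested.

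Pcdhb20 had the smallest p there, with 0 to 52.3 CPM in SAL-SAL (median 16.2) and 0 to 19.8 CPM in SAL-LPS (median 12.7), and its log2 fold change was -0.70 (SE 0.31, edgeR adjusted p = 0.270). Its highest SAL-SAL values were the litter 10 libraries described above, and without that litter the estimate was -0.21. Without the 4 SAL-SAL libraries high in regional markers (and the 5 of MOR-LPS), 33 rather than 42 members lay below 0.

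**Figure D3:**
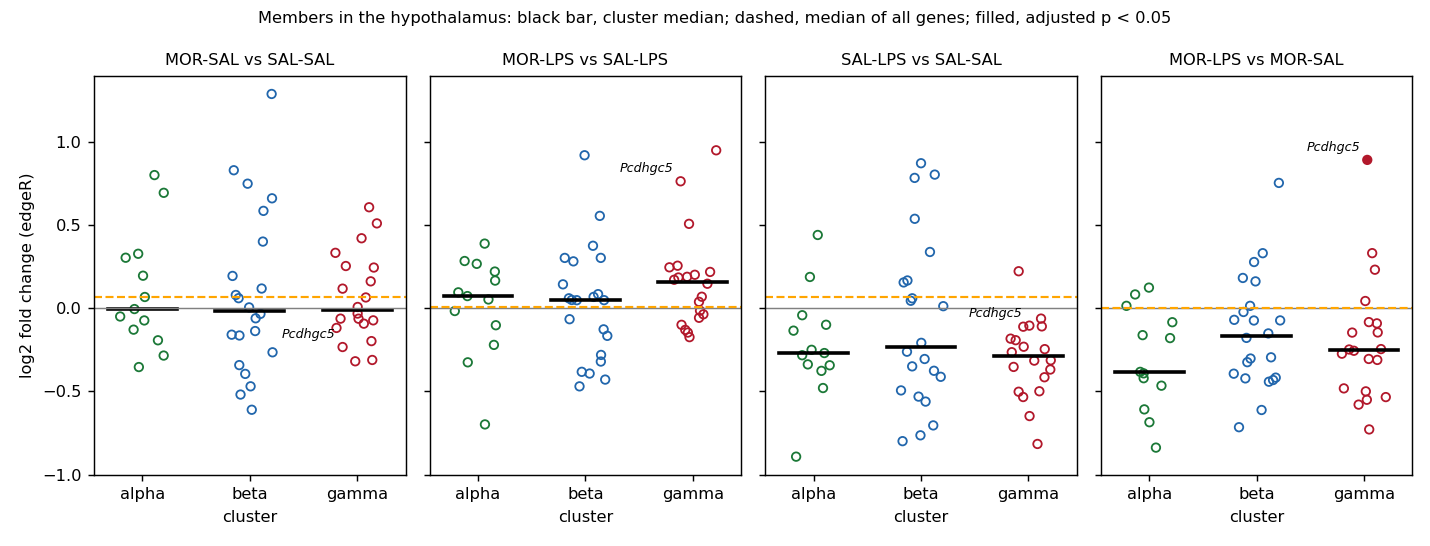
Log2 fold change of each of 55 members in the hypothalamus, by cluster, in the 4 pairwise comparisons. Each circle is a gene, filled where the edgeR adjusted p was below the threshold of 0.05, black bars are cluster medians and the dashed line is the median of all genes tested, and Pcdhgc5 in MOR-LPS against MOR-SAL is the lone filled circle.

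MOR-LPS against MOR-SAL shares no library with the previous comparison. Here 1 of 55 members was called, where 6.27% of all genes were, so the count by itself sets the members apart in no way. The background of 1809 genes fell to 396 with counts summed by litter, to 565 without the libraries high in regional markers, to 66 without those high in astrocyte markers, and to 809 without litter 16, 996 without litter 14, 1067 without litter 6 and 1200 without litter 15. Again 42 of 55 members (76.4%) had estimates below 0, against 49.6% of all genes, with a median of -0.25 against 0.00. They were not all the same members: 31 lay below 0 in both LPS comparisons. A further 11 did so only in SAL-LPS against SAL-SAL, 11 only here, and 2 were above 0 in both. All members were measured in the same libraries, so they are not 55 separate observations. By cluster 16 of 20 gamma, 10 of 13 alpha and 16 of 22 beta members lay below 0, and the cluster medians were -0.25, -0.38 and -0.16.

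Markers of other cell types and regions moved in the same comparison. Astrocyte markers were called higher for 5 of 6 genes (median log2 fold change 2.43), with summed levels of 84.6 to 206 CPM in MOR-SAL and 126 to 1398 CPM in MOR-LPS. Oligodendrocyte markers were called higher for 5 of 6 (1.69), with sums of 71.2 to 638 and 225 to 6144 CPM, and microglia markers for 3 of 6 (1.37), with sums of 11.0 to 31.8 and 9.06 to 184 CPM. Cortex markers were called higher for 5 of 6 (3.16), and hippocampus markers for 2 of 6. Among the 6 striatum markers Rgs9 was called lower, and no neuron, endothelium, choroid plexus, thalamus or hypothalamus marker was called. The part of these markers in the estimates of the members was not tested.

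The called member was Pcdhgc5 (chr18:37819513-37841873, plus strand), the last gene of the gamma cluster, whose product is found at synapses of mature neurons. MOR-SAL libraries had 19.3 to 39.9 CPM (median 32.5, n = 14) and MOR-LPS libraries 13.2 to 122 CPM (median 40.3, n = 14). The groups overlapped, 7 of 14 MOR-LPS libraries were above every MOR-SAL library, and 1 was below the lowest of them. Pcdhgc5 rose with a log2 fold change of 0.89 (SE 0.29, edgeR adjusted p = 0.0467). The other C-type genes had estimates of 0.01 (Pcdhac1), 0.12 (Pcdhac2) and 0.33 (Pcdhgc3), so all 4 were above 0, against most members. The median SE of the 4 was 0.38. All 4 were also above 0 in the other comparisons that use MOR-LPS libraries. In MOR-SAL against SAL-SAL all 4 were below 0, and in SAL-LPS against SAL-SAL all 4 were below 0 along with most members.

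Within MOR-LPS, the mean of Pcdhgc5 was higher in the libraries with high cortex or hippocampus markers. No MOR-LPS library passed the threshold for thalamus markers. The part of the cortex and hippocampus markers in the rise of Pcdhgc5 was not tested. The 5 MOR-LPS libraries high in regional markers had 42.3 to 122 CPM (93.3 ± 33.5, SD), and the other 9 had 13.2 to 67.8 CPM (34.0 ± 17.6), close to the MOR-SAL mean of 29.7 ± 7.25. No MOR-SAL library passed the threshold for thalamus, cortex or hippocampus markers. Without the marked libraries the log2 fold change was 0.18 (adjusted p = 0.846), and 0.22 (adjusted p = 0.814) when the 2 libraries high in striatum markers were left out as well. Without those high in oligodendrocyte markers it was 1.27 (adjusted p = 0.0119), and without those high in astrocyte markers 0.90 (adjusted p = 0.172). Leaving out each litter in turn ended the call for 10 of 17 litters, with adjusted p = 0.207 without litter 16, 0.118 without litter 6, 0.102 without litter 8, 0.0769 without litter 14 and 0.0502 to 0.0557 without litter 3, 7, 9, 11, 12 or 17.

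**Figure D4:**
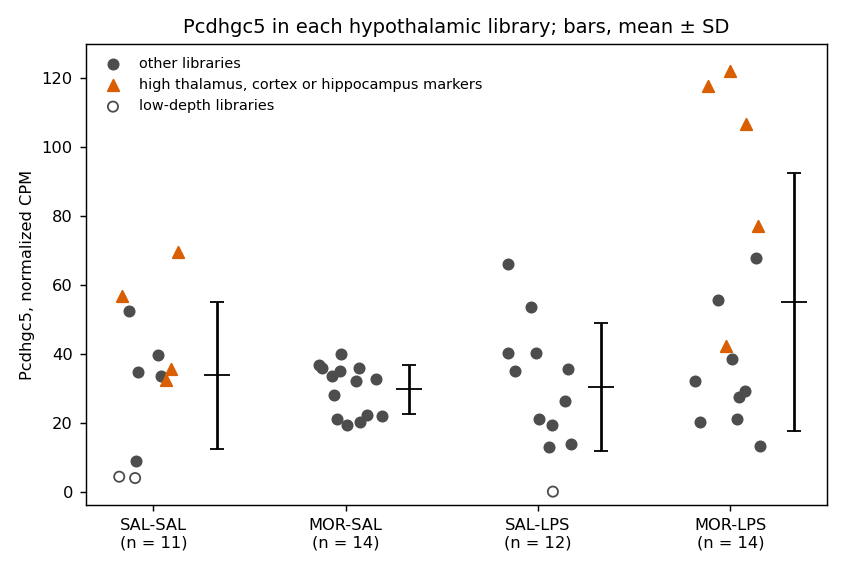
Normalized CPM of Pcdhgc5 in each hypothalamic library by group, with mean ± SD at the right of each group. Triangles are libraries with high thalamus, cortex or hippocampus markers and open circles low-depth libraries, and the 4 highest values are MOR-LPS triangles.

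Pcdhb14 was measured more evenly and leaned the other way. Its MOR-SAL and MOR-LPS ranges, given above, overlapped, and the log2 fold change was -0.42 (SE 0.20, edgeR adjusted p = 0.230). It lay between -0.54 and -0.34 in all 31 alternative analyses, with adjusted p of 0.125 to 0.481.

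The interaction asks whether the LPS response differed between exposures. It called 0 of 55 members, where 3.8% of all genes were called, and 28 estimates were above 0 and 27 below. The background of 1098 genes fell to 112 with filterByExpr, to 61 with counts summed by litter, to 338 without the libraries high in regional markers, to 669 without litter 10 and to 25 by limma-voom with a correlation within litters. An unadjusted p under 0.05 was found for 2 members, and no other tool called one. The 4 C-type estimates were all above 0, the best supported being Pcdhgc5 at 1.00 (SE 0.43, edgeR adjusted p = 0.215), which became -0.09 without the libraries high in regional markers. Pcdhb2 had an estimate of -1.41 (SE 0.87) and Pcdhb14 of -0.46 (SE 0.31).

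Related genes fixed as lists gave the setting. Of 11 nonclustered protocadherins (such as Pcdh9 and Pcdh19, which lie elsewhere in the genome), 1 was called in 1 hypothalamic comparison: Pcdh20 had 0 to 20.7 CPM in SAL-LPS and 6.64 to 117 CPM in MOR-LPS (log2 fold change 1.58, SE 0.41, edgeR adjusted p = 0.0433), and 1.10 (adjusted p = 0.137) without the libraries high in regional markers. With the filterByExpr filter the adjusted p was 0.199. Without the libraries high in astrocyte markers Pcdh20 was not called either (2.04, adjusted p = 0.0915), nor without those high in oligodendrocyte markers (2.04, adjusted p = 0.0807). The median of Pcdh20 in MOR-LPS, 25.7 CPM, was above the SAL-LPS range, while the ranges overlapped. The astrocyte marker Slc1a2 was called higher in the same comparison, and its part was not tested. Of 14 tested chromatin regulators of the clusters, among them Ctcf, the cohesin subunits Rad21 and Smc3, the loader Nipbl and the silencer Smchd1, none was called in any of the 5 hypothalamic comparisons, with list medians between -0.06 and 0.15. In the forebrain tables the list genes called were Smchd1 in the hippocampus, which was lower in MOR-LPS against SAL-LPS (log2 fold change -0.67, SE 0.19, edgeR adjusted p = 0.0369, but 0.163 with the filterByExpr filter), and Rad21 in the striatum, which rose in MOR-LPS against MOR-SAL (0.64, SE 0.17, adjusted p = 0.0433, and 0.0386 with that filter).

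The WAVE complex, an actin regulator that binds protocadherin tails, and the kinases and partners of those tails were the pathway lists with called genes in MOR-LPS against MOR-SAL, where 6.27% of all genes were called and 1182 of 28859 were called higher, the glial and cortex markers given above among them. Of 9 WAVE genes 3 rose and none fell, namely Cyfip1 (log2 fold change 0.94, SE 0.18, adjusted p = 0.00118), Wasf1 (1.03, SE 0.23, adjusted p = 0.00616) and Abi1 (0.64, SE 0.19, adjusted p = 0.0337). Of 8 kinases and partners 3 rose and none fell, Ptk2b, a focal adhesion family kinase inhibited by protocadherin tails, from 1.29 to 79.1 CPM in MOR-SAL to 11.9 to 741 CPM in MOR-LPS (2.66, SE 0.55, adjusted p = 0.00230), Prkca (1.00, adjusted p = 0.0109) and Ptk2 (0.57, adjusted p = 0.0315).

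Ranges of these 6 genes overlapped between the groups. Without the libraries high in regional markers none of the 6 was called, with estimates of 0.55 for Cyfip1 (adjusted p = 0.0783), 1.30 for Ptk2b (0.133), 0.64 for Prkca (0.130), 0.48 for Ptk2 (0.134), 0.34 for Abi1 (0.348) and 0.32 for Wasf1 (0.464). Without the libraries high in astrocyte markers Ptk2b was called (2.74, adjusted p = 0.0280) and the other 5 were not. Without those high in oligodendrocyte markers all but Ptk2 (0.51, adjusted p = 0.109) were called, with estimates of 0.80 for Abi1 to 3.30 for Ptk2b. In the interaction, where 3.8% of all genes were called, Ptk2b (2.83, adjusted p = 0.0239) and Ptk2 (0.91, adjusted p = 0.0293) were called. Neither was without the libraries high in regional markers (0.57 and 0.83), without those high in astrocyte markers (2.77 and 0.62, adjusted p of 0.0569 and 0.301) or with the filterByExpr filter (adjusted p of 0.0764 and 0.0624), whereas without the libraries high in oligodendrocyte markers Ptk2b was called (3.06, adjusted p = 0.0292). Called higher in the interaction were also 5 of 6 oligodendrocyte, 3 of 6 astrocyte and 3 of 8 thalamus markers, Csf1r (microglia) and Ttr (choroid plexus), and called lower were Adora2a and Rgs9 (striatum) and Pomc (hypothalamus). The part of these markers was not tested.

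In the forebrain tables the sole member with values was Pcdha1, at the start of the alpha cluster. Its levels were 0 to 7.45 normalized CPM in the hippocampus (median 1.42, 55 libraries, 7 at 0), 0 to 11.7 in the PFC (1.498, 48 libraries, 11 at 0) and 0.176 to 6.93 in the striatum (2.56, 54 libraries, none at 0). In the hypothalamic table its median was 4.87 CPM, on a scale not comparable with theirs.

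No treatment comparison called Pcdha1 in a forebrain table, by edgeR, DESeq2 or limma-voom. The share of all genes called in MOR-SAL against SAL-SAL was 0% in all 3 tables. For MOR-LPS against SAL-LPS it was 2.73% (hippocampus), 0.0046% (PFC) and 0% (striatum), and for SAL-LPS against SAL-SAL 2.55%, 0% and 0.0128%. For MOR-LPS against MOR-SAL it was 0.467%, 0.0184% and 1.39%, and for the interaction 2.35%, 1.78% and 0.00854%. The hippocampal shares rested on the low-count filter: with filterByExpr 1 gene of 14875 was called in MOR-LPS against SAL-LPS, 2 in SAL-LPS against SAL-SAL, 4 in MOR-LPS against MOR-SAL and 0 in the interaction. The 387 genes of the PFC interaction fell to 0 with filterByExpr, without sex-conflict libraries and with counts summed by litter.

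The one unadjusted p under 0.05 among these 15 comparisons was in the striatum. SAL-SAL libraries had 0.325 to 4.09 CPM (median 1.92, n = 13) and SAL-LPS libraries 0.566 to 6.93 CPM (median 4.06, n = 15). The ranges overlapped, and the log2 fold change was 0.91 (SE 0.37, edgeR adjusted p = 0.282). After morphine the same contrast gave -0.15 (SE 0.40), and the interaction was -1.06 (SE 0.54, adjusted p = 0.348). In the hippocampus the 5 estimates lay between -0.36 and 0.18 with SE of 0.62 to 0.93, and in the PFC between -1.13 and 1.25 with SE of 0.89 to 1.35. The 95% interval of the PFC estimate for SAL-LPS against SAL-SAL ran from -0.80 to 3.29, so a change of severalfold would not have been detectable there.

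**Figure D5:**
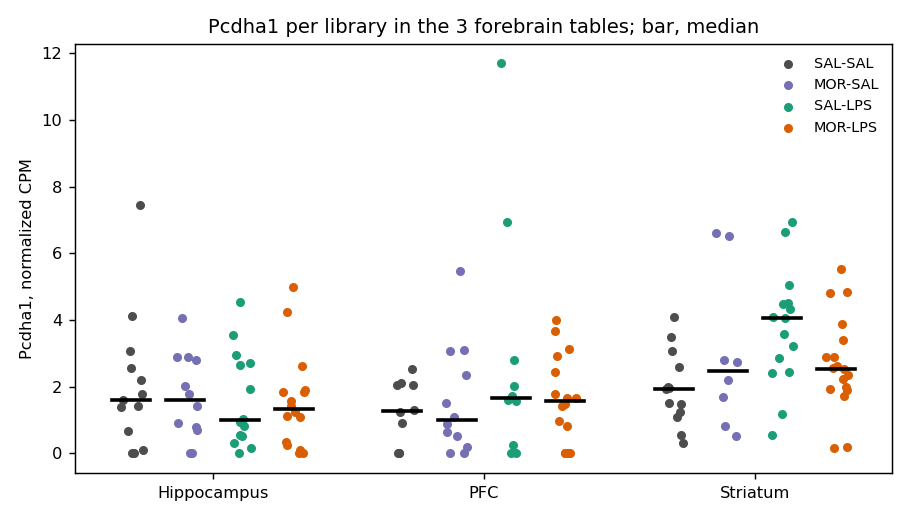
Normalized CPM of Pcdha1 in each library of the hippocampus, PFC and striatum, by group, with bars at group medians. All groups overlap within each region, and the striatal SAL-LPS median of 4.06 is the highest.

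Between regions, SAL-SAL libraries of the 3 forebrain tables were joined over the genes counted in each. These 36 libraries came from 15 animals, each with 2 or 3 regions, and were fitted as independent. Pcdha1 had 0 to 7.11 CPM in the hippocampus (median 1.54, n = 13), 0 to 2.62 in the PFC (1.33, n = 10) and 0.328 to 4.16 in the striatum (1.89, n = 13), and all 3 ranges overlapped. It was not called, where 13.7% of genes were called between hippocampus and PFC, 13.4% between striatum and PFC and 9.78% between hippocampus and striatum. The log2 differences were 0.58 (SE 0.74), 0.62 (SE 0.74) and -0.04 (SE 0.68), with edgeR adjusted p of 0.661, 0.644 and 0.984. With libraries of all conditions the hippocampus was lower than the striatum by a log2 difference of -0.77 (adjusted p = 0.0382), again with libraries of the same animals fitted as independent. With the animal as a block, SAL-SAL libraries gave 0.82, 1.27 and -0.45 (adjusted p of 0.689, 0.452 and 0.842).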

How the data were processed

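Nuclear RNA of NeuN+ nuclei was sequenced in 208 libraries of 4 brain regions from 71 mice. The authors deposited raw counts per gene, made with Trim Galore 0.6.7 and STAR 2.7.10a gene counting on mm10 and compared with HTSeq 0.12.4, and CPM values. The deposited CPM were recomputed from the counts without 37 mitochondrial genes and served only as a check.

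Each region was fitted alone in edgeR 4.0.16 (R 4.3.3) with the 4-level condition and sex, genes with a total count above 10, TMM scaling, the quasi-likelihood test and Benjamini-Hochberg adjustment over all genes, called at an adjusted p of 0.05. Normalized CPM use TMM-scaled library sizes. Exon and gene-body bases free of other genes came from GENCODE M21 (mm10), whereas the study counted on a later release. Alternatives used DESeq2 1.42.0, limma 3.58.1 (voom), other scalings and filters, and left out libraries or litters. The steps were tested on simulated data, where false calls lay mostly among sparsely counted genes and changes of moderate as well as small size were often missed, so a count of 0 called members does not show that nothing changed. Within a region each library is 1 mouse, so p-values measure the spread between mice, and mice with the same litter number were treated as independent except in the alternatives. No pair of libraries in a group agreed within sampling noise (smallest chi-square per degree of freedom 3.46).

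Members and lists were chosen with earlier results of these data known. Named with values were Pcdhb2, Pcdhb14, the C-type genes, the 3 highest members of each cluster per kb, and in each comparison the called members or the one with the smallest p. Pcdhb18, Pcdhb1 and Pcdhga4 were chosen after their values were seen, as were the alternatives without libraries high in regional (with or without striatum), oligodendrocyte or astrocyte markers. Per-base sequences are not reported here.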

Additional observations from a re-analysis of the deposited data

How the results depend on the processing

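The count of called members in MOR-LPS against MOR-SAL, 1 in the hypothalamus, became 0 with filterByExpr, library-size scaling, no sex-conflict libraries, litter sums, limma-voom with a correlation within litters (estimated at -0.049, so tool and correlation changed together), or without libraries high in regional markers (with or without striatum markers) or in astrocyte markers, and was 0 to 1 over the 17 litters left out in turn. The log2 fold change of Pcdhgc5 was then 0.91, 0.83, 0.93, 0.72, 0.52, 0.22, 0.18 and 0.90 (adjusted p of 0.0694, 0.0661, 0.0579, 0.0973, 0.462, 0.814, 0.846 and 0.172), and 0.71 to 1.05 over the litters. With litter as a replicate block it was 0.75 (adjusted p = 0.187) and 0 members were called. The mean correlation of deviations within a litter number was over 0.1 for 0 of 15 numbers in the hypothalamus, 5 of 12 in the striatum, 0 of 15 in the hippocampus and 1 of 11 in the PFC (median r of -0.04, 0.06, -0.03 and 0.01), so not every number had libraries that deviated together, and they were not taken to pair the samples. The block left the LPS comparisons of the other regions at 0 called, and it could not be fitted for morphine against saline, where litters are nested. Sex was dropped from the block in the PFC and striatum. In the striatum no library was shallow or in conflict with its sex label, so those alternatives were not run.

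Pcdhgc5 turned sign in MOR-SAL against SAL-SAL without litter 10 (-0.39 to 0.078 over the litters left out), and, without libraries high in regional markers, there (0.13, and 0.10 with striatum markers counted too), in SAL-LPS against SAL-SAL (0.26 and 0.13) and in the interaction (-0.085). Pcdha1 turned sign between hippocampus and PFC over all conditions (-0.14) and between hippocampus and striatum with library-size scaling (0.054), and over all conditions 1 member was called there (-0.77). The cause was not tested. Of 55 members, those below 0 numbered 33 to 46 in SAL-LPS against SAL-SAL, 37 to 49 in MOR-LPS against MOR-SAL and 21 to 36 in the interaction over 31 alternatives each. Over 30 alternatives they numbered 15 to 32 in MOR-SAL against SAL-SAL and 13 to 31 in MOR-LPS against SAL-LPS, so the majority changed sides in these and in the interaction. In the other comparisons, no alternative called a member.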
